A study of Mus musculus with 9 samples.

Results

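D2.0R cells grown for 5 days on basement membrane extract (BME) with added type I collagen (COL1) are compared here with D2.0R cells grown for 1 day on BME alone. The comparison used the 3 BME plus COL1 day 5 libraries and the 3 BME day 1 libraries of a series of 9, and it took in every gene whose mean over these 6 libraries was at least 1 FPKM. That left 10379 genes of the 23309 gene symbols in the files. FPKM is a fragment count divided by transcript length and by the mapped fragments of a library, so levels of different genes can be compared. The other 3 libraries, from cells on BME at day 5, did not enter the main test. They entered only an alternative fit over all 9 libraries. Their levels are given beside a few genes as a description.

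D2.0R is a mouse mammary tumour line derived from hyperplastic alveolar nodules, and one line stands for all 9 libraries. Each group holds 3 biological replicates, lettered a, b and c. All cells sat in 3-dimensional culture on growth factor-reduced BME in low-glucose medium with 2% serum, and were lifted off the matrix in the cold before RNA was extracted. The groups differ in the matrix and in the number of days, so the effects of added collagen and of time in culture cannot be told apart in this comparison.

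Type I collagen is the main fibrillar collagen of connective tissue, whereas a basement membrane is built chiefly of laminin and type IV collagen. Cells hold on to both through integrins, which link the matrix to actin and to kinases that relay growth signals. D2.0R cells on BME alone are used as a model of tumour cell dormancy, because single cells stay viable there without dividing, and added COL1 is used to bring them into division. A cell that enters division has to copy its DNA, double its ribosomes and mitochondria and rebuild its cytoskeleton, while a resting cell relies more on autophagy and the lysosome, which return its own material to use.

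Aligned sequence came to 8.35 to 8.77 gigabases in the BME day 1 libraries and 8.43 to 9.37 in the BME plus COL1 libraries. The interval that Cufflinks wrote around a value reached a median of about 12% to either side at 1 to 5 FPKM (11.9% to 12.8% among the 6 libraries) and 3.70% to 3.92% from 20 FPKM upwards. Genes shorter than 300 nt took 0.440% to 0.649% of all FPKM at BME day 1 and 1.14% to 2.12% on BME plus COL1. The ribosomal precursor Rn45s stood at 3105 FPKM in replicate c of BME plus COL1 and at 102 to 195 in the other 5 libraries. Added up over all genes, FPKM came to 351652 to 367000 at BME day 1 and to 417944 to 423289 on BME plus COL1. This difference in sums matters for the direction of small differences, and values divided by it (TPM, the FPKM rescaled to one sum in all libraries) are given beside the counts of a list that they change by more than 1.5 times.

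The labelled cell type was checked against marker genes. Of 12 mammary epithelial markers, 7 were tested, led by the keratins Krt8 and Krt18, and the summed level of the list was 1472 to 1633 FPKM at BME day 1 and 2367 to 2474 on BME plus COL1. The members did not rise together, with 3 called higher and 2, Krt14 and Gata3, lower (4 lower as TPM, median -0.13 in FPKM). Among 13 haematopoietic markers 11 stayed under 1 FPKM in all 6 libraries, with sums of 7.84 to 10.6 against 5.31 to 6.77. Of 10 endothelial markers Flt1 alone passed 1 FPKM, with sums of 14.9 to 17.8 against 17.3 to 19, and all 5 adipocyte markers stayed under 1 FPKM. The 12 fibroblast markers summed to 37.6 to 51.5 FPKM at BME day 1 and to 8.92 to 9.34 on BME plus COL1, with Lum and Thy1 at 0 in all 6 libraries. At BME day 1 Pdgfra, Pdgfrb, Postn and Col6a3 made up most of that sum, and the part that other cells might have in it was not tested. Of the 6 fibroblast markers tested 5 were called lower and 1, Acta2, higher (2.79). In bulk libraries such as these, fewer cells of a kind and less RNA per cell cannot be told apart.

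The 2 groups lay far apart. At an adjusted p under 0.05 (limma on log2 of FPKM plus 0.1, adjusted by Benjamini and Hochberg over 10379 genes), 4257 genes (41.0%) were called higher on BME plus COL1 at day 5 and 3661 (35.3%) lower, which is 7918 genes (76.3%) in either direction. In 8292 genes, or 79.9%, no library of one group reached into the range of the other. A lack of overlap in a single gene is thus the usual case. Counts of the lists below are to be read beside the 41.0% and 35.3% of all tested genes. By at least 2-fold, 793 genes (7.64%) were called higher and 934 (9.0%) lower, and the counts parted further out, with 61 higher and 208 lower at a log2 difference of 2 or more in size. Falls were therefore fewer in number than rises but more often large. Expressed as TPM the split was 2975 higher and 5124 lower, because the median log2 difference over all genes moved from 0.04 to -0.18, a shift of -0.22. Of the called genes 53.8% were higher on the FPKM scale and 36.7% as TPM. The share was 37.7% without genes shorter than 300 nt, with the rest rescaled to the same sum. It was 50.2% after median-ratio scaling and 52.1% after quantile scaling. Small positive differences can therefore change sign on another scale. All values given as without short genes are rescaled in this way, so they are no check separate from TPM.

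The direction also went with the level of a gene. Among 638 genes with a mean of 100 FPKM or more, 65.8% were called higher and 19.4% lower, and among 2772 genes between 1 and 5 FPKM the shares were 23.4% and 45.6%. The median of the longest transcript was 2511 nt in genes called higher, 3142 nt in genes called lower and 2826 nt over all tested genes. At the filter, Pdk1 lay just inside with a mean of 1.0004 FPKM and Rims2 just outside with 0.9975, and 106 genes fell between 0.9 and 1 FPKM against 106 between 1 and 1.1.

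**Figure D1:**
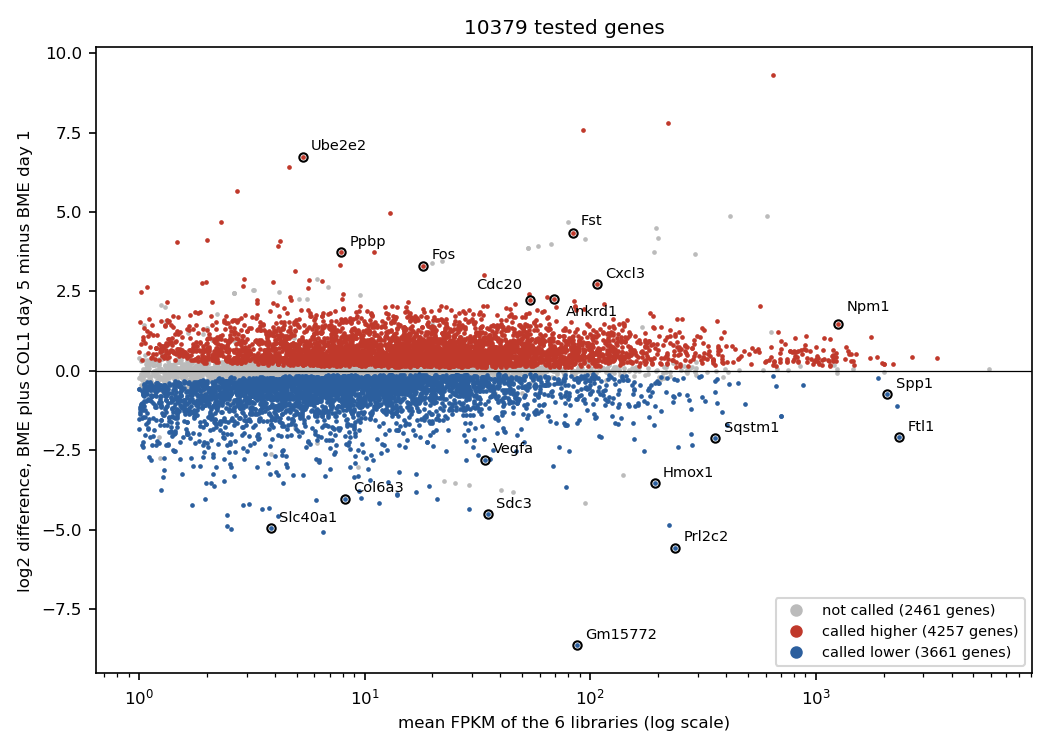
Mean FPKM of the 6 compared libraries (x axis, log scale) against the log2 difference, BME plus COL1 day 5 minus BME day 1 (y axis), 1 point for each of 10379 tested genes, coloured by call. The 793 and 934 genes beyond 1 and -1 lie on both sides at every level, and the falls named from Slc40a1 to Prl2c2 reach further down than most rises reach up.

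Genes of DNA replication rose as a body. Of 43 tested genes all 43 were called higher (42 as TPM), with a median log2 difference of 1.18 beside 0.04 over all genes. Mcm5, a subunit of the helicase that opens the double strand, read 18.7, 25.1 and 22.1 FPKM in replicates a, b and c at BME day 1 and 68.9, 70.8 and 72.2 on BME plus COL1 (log2 difference 1.69 with SE 0.10, limma adjusted p = 2.44e-06). Cdc6, which loads that helicase at origins, rose by 1.79 on the log2 scale, and Rfc5, a subunit of the loader of the sliding clamp, by 2.05. Every BME plus COL1 library lay above every BME day 1 library for all 43 genes. Among all tested genes 79.9% were without overlap in either direction. The list also covers the supply of DNA building blocks, where thymidine kinase Tk1 went from 22.9, 28.4 and 28.8 to 97.9, 97.2 and 99.0 FPKM (log2 difference 1.88 with SE 0.09, limma adjusted p = 8.66e-07). Flap endonuclease Fen1, which trims the ends of lagging-strand fragments, rose by 1.45. On BME at day 5 Mcm5 stood at 21.3, 7.30 and 16.3 FPKM and Tk1 at 29.4, 7.32 and 22.9.

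Mitotic genes rose as well, with a larger median than those of replication. All 44 tested members were called higher (43 as TPM), 42 of them by at least 2-fold, and their median was 1.63. Cdc20, which switches on the ubiquitin ligase that ends metaphase, read 18.2, 18.9 and 19.5 FPKM at BME day 1 and 88.6, 90.6 and 89.5 on BME plus COL1 (log2 difference 2.24 with SE 0.04, limma adjusted p = 1.19e-07). Ccnb1, the cyclin that drives entry into mitosis, went from 21.4, 23.4 and 25.2 to 77.6, 83.2 and 82.2 FPKM (log2 difference 1.79 with SE 0.07, limma adjusted p = 3.89e-07). Mki67, whose protein coats mitotic chromosomes and is used as a marker of cycling cells, had 14.1, 17.9 and 15.8 FPKM against 47.3, 48.3 and 42.3 (log2 difference 1.53 with SE 0.09, limma adjusted p = 2.84e-06). The groups were apart for each of the 3 genes, and the BME day 1 cultures were well above 0 in all of them. The kinase Plk1 rose by 2.04, Birc5, a subunit of the chromosomal passenger complex, by 2.21 and Cenpa, the histone H3 variant of the centromere, by 1.99. The phosphatase Cdc25b, named after its value was seen, was the weakest member (log2 difference 0.31 with SE 0.11, limma adjusted p = 0.0375), and its call was lost as TPM and without replicate a or b of BME day 1 or any replicate of BME plus COL1 (adjusted p up to 0.115 from limma). BME day 5 cultures held 16.4, 5.08 and 12.3 FPKM of Cdc20 and 18.5, 4.88 and 14.6 of Mki67.

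Promoters of these genes can be read for known motifs. The RefSeq table used here gives 250 bases before and 50 after a start site on GRCm38.p6 and holds 36 of the 44 mitotic genes and 8313 of the 10379 tested genes. The cell cycle homology region (CHR, letters TTTGAA, searched on both strands) is a site read by repressor and activator complexes that time mitotic genes. It was in promoters of 26 of 36 mitotic genes (72.2%). The share was 13.8% among the tested genes and 20.2% among all 27025 genes of the table. A gene counts if any of its promoters holds the motif. The E2F motif (TTTCCCGC or TTTGGCGC), a site of the factors that switch on S phase, was in 3 of 36 (8.33%) against 3.90% and 1.8%. For the DNA replication list only 34 of 43 genes had a promoter, so no share is given. Printed here are the 250 bases before the start of 2 mitotic genes with a CHR and of 1 replication gene with an E2F motif, each with the motif in capitals.
Cdc20 (chr4:118437344-118437593, minus strand, 18 bases before the start): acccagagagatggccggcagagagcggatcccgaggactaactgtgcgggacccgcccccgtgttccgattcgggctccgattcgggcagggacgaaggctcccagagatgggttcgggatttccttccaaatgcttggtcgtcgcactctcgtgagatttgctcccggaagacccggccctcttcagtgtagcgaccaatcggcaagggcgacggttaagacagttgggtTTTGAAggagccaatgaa
Mki67 (chr7:135716380-135716629, minus strand, 116 and 98 bases before the start): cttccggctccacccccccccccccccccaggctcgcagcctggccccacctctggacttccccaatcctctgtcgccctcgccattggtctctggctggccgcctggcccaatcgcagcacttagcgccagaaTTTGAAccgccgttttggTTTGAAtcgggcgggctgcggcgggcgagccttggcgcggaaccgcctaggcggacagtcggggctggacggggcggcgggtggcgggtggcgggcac
Mcm5 (chr8:75109259-75109508, plus strand, 149 bases before the start): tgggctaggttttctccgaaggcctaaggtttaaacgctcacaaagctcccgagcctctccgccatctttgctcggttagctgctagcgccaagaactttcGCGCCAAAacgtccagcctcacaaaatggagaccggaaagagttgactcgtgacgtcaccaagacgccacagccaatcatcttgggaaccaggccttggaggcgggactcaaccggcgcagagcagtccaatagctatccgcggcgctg
A match of these letters describes the sequence and shows no binding.

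Genes that control the step from G1 into S phase were split by role. Of 20 tested members, 17 were called higher and 3 lower (median 0.60). The late G1 cyclins Ccne2 (1.36) and Ccne1 (1.28) rose, as did the E2F factors E2f7 (1.40) and E2f4 (1.28), which act mainly as repressors. Ccnd1, the cyclin that growth signals induce, went from 78.2, 85.0 and 91.1 to 128, 129 and 125 FPKM (log2 difference 0.59 with SE 0.06, limma adjusted p = 4.78e-05) without overlap. The pocket proteins Rb1 (-0.87) and Rbl2 (-0.88), which hold E2F factors in check in resting cells, fell, whereas their relative Rbl1, itself an E2F target, rose by 0.82.

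Inhibitors of cyclin-dependent kinases moved both ways. Cdkn1a (p21) read 31.4, 28.1 and 26.1 FPKM at BME day 1 and 6.61, 6.89 and 6.28 on BME plus COL1 (log2 difference -2.09 with SE 0.08, limma adjusted p = 3.73e-07), with no overlap. Cdkn1b (p27) fell by a small amount, from 12, 11.7 and 13.6 to 9.93, 10.1 and 8.87 FPKM (log2 difference -0.36 with SE 0.08, limma adjusted p = 0.00276). Cdkn2b (p15) had 25.8, 24.9 and 29.2 against 15.5, 13.9 and 14.3 FPKM (log2 difference -0.86 with SE 0.07, limma adjusted p = 1.66e-05). The remaining inhibitors went the other way or were flat. Cdkn2d (p19INK4d, 1.01) and Cdkn2c (p18, 0.88), both of which vary with the cell cycle, rose, and Cdkn2a was not called (-0.03, called lower at -0.25 as TPM).

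The MYC network, whose members compete for the partner MAX at shared DNA sites, moved both ways. Of 10 tested genes 5 were called higher (3 as TPM and without short genes) and 3 lower. Myc went from 34.0, 31.6 and 34.7 to 67.4, 69.4 and 62.8 FPKM (log2 difference 0.99 with SE 0.06, limma adjusted p = 2.35e-06), and its groups did not overlap. Of the MAX-binding repressors Mxd4 (-2.64) and Mnt (-1.14) fell and Mxd3 (0.75) rose, as did their relative Mlx (0.67). Also lower was Mycl1 (-2.72), a MYC relative that stood below 5 FPKM in the mean. BME day 5 cultures had 39.7, 17.6 and 34.1 FPKM of Myc.

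Synthesis of nucleotides followed the same direction. All 17 tested enzymes of purine and pyrimidine synthesis were called higher, 12 by at least 2-fold, with a median of 1.11. Impdh2, which commits purines to guanine nucleotides, read 69.9, 70.7 and 76.5 FPKM against 223, 218 and 214 (log2 difference 1.59 with SE 0.05, limma adjusted p = 2.5e-07), and Prps1, which makes the activated ribose that both pathways start from, rose by 1.47. The enzymes that charge folate with single carbons for this work were also higher in part, with Shmt1 at 1.69 and Mthfd1 at 1.34. Of 17 genes of the pentose phosphate, serine and one-carbon pathways 9 were called higher and 7 lower. Phgdh, the entry enzyme of serine synthesis, went from 203, 185 and 125 to 289, 294 and 301 FPKM (log2 difference 0.82 with SE 0.16, limma adjusted p = 0.00197). Lower were Aldh1l2 (-1.34), which draws folate carbons away from this use, and Taldo1 (-0.94) and Pgd (-0.89) of the pentose phosphate pathway. Its ribose 5-phosphate isomerase Rpia rose by 1.29.

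Ribosome assembly rose nearly throughout. Of 42 tested factors 41 were called higher (40 as TPM) and none lower, 23 of them by at least 2-fold, with a median of 1.04. Npm1 (nucleophosmin), the most abundant nucleolar protein of the list, read 696, 662 and 645 FPKM at BME day 1 and 1919, 1808 and 1836 on BME plus COL1 (log2 difference 1.47 with SE 0.05, limma adjusted p = 3.01e-07). Tcof1, which couples ribosomal DNA transcription to processing, rose by 1.61, the snoRNP core protein Nop58 by 1.49 and Polr1b, the second largest subunit of RNA polymerase I, by 1.12. Taf1b was the 1 member not called (-0.00), and it was called lower as TPM (-0.23). The E-box CACGTG is a palindrome that MYC and the MiT/TFE factors both read. It was in promoters of 10 of 36 list genes (27.8%), against 12.3% of tested genes and 8.09% of all genes of the table. Nop2, a methyltransferase of the large subunit RNA that rose by 1.28, is shown with its E-box in capitals.
Nop2 (chr6:125131633-125131882, plus strand, 60 bases before the start): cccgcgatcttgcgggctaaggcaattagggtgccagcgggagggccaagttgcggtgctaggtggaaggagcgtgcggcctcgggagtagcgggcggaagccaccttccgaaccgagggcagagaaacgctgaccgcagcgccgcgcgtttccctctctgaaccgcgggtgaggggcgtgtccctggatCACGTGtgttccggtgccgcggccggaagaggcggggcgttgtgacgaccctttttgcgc

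Cytosolic ribosomal protein genes, by contrast, moved by little, and their direction hangs on the scale. In FPKM 76 of 78 were called higher (median 0.36). As TPM 31 were higher and 1 lower, after quantile scaling 23 were higher and 18 lower, and without short genes 35 were higher. Rpl26 had the largest difference (1.63), but its values were 114, 128 and 116 FPKM at BME day 1 and 361, 354 and 389.7 on BME plus COL1, while Gm15772, which shares its end and all but 23 nt of its start on chromosome 11, read 219.7, 162 and 139 against 0.0207, 4.43 and 0.0444. Added together the 2 entries gave 333.7, 290.0 and 254.8 FPKM against 360.9, 358.7 and 389.7, a 1.26-fold difference. How Cufflinks divided reads between the overlapping models was not tested, so neither gene is read alone.

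Of 35 translation factors 29 were called higher and 2 lower (4 as TPM, median 0.60). Among initiation factors the cap-binding protein Eif4e (1.11) and Eif5a (1.08) rose most. Eef1d (1.20) led the elongation factors, whereas Eef1a1, the most abundant gene of the list, was not called (0.05, but called lower at -0.17 as TPM). Pdcd4, an inhibitor that blocks the helicase of the initiation complex, went from 6.54, 5.80 and 7.06 FPKM at BME day 1 to 1.18, 1.03 and 1.35 on BME plus COL1 (log2 difference -2.36 with SE 0.12, limma adjusted p = 1.26e-06). It was the largest fall of the list and had no overlap. Among 20 tRNA synthetases 10 were higher and 5 lower, from Vars (0.99) and Kars (0.96) to Sars (-0.49) and Aars (-0.51). Splicing factors of the SR and hnRNP families were higher in 30 of 32 cases and lower in 1 (2 as TPM, median 0.66), with Hnrnpab (1.09) and Srsf7 (0.95) in front.

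Protein folding and turnover rose with them. All 8 subunits of the chaperonin TRiC, which folds actin and tubulin, were called higher (median 1.06), and Cct6a read 144, 149 and 150.3 FPKM against 351, 349 and 340.5 (log2 difference 1.23 with SE 0.04, limma adjusted p = 2.86e-07). Of 15 heat shock chaperones 11 were higher, including Hsp90aa1 (1.34) and the small heat shock protein Hspb1 (1.11). Bag3, a cochaperone that hands clients to autophagy, fell by 0.77 on the log2 scale and was the 1 fall of that list, which became 2 without replicate a of BME day 1 and 3 as TPM. All 31 proteasome subunits were higher (26 as TPM), by small amounts (median 0.55, up to 1.05 for Psmd3). For 14 of 20 genes of the unfolded protein response the call was higher, with Sdf2l1 at 1.69, Creld2 at 1.31 and the chaperone Hspa5 (BiP) at 606, 619 and 408 against 868, 864 and 841 FPKM (log2 difference 0.68 with SE 0.15, limma adjusted p = 0.00342). Called lower in that list were 4 genes, among them the cochaperone Dnajb9 (-1.39) and the sensor Ern1 (-0.60).

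Mitochondrial genes divided between the machinery that builds the organelle and the respiratory chain. Of 74 mitochondrial ribosomal protein genes 67 were called higher and 2 lower (median 0.60), and of 27 genes of import and quality control 23 were higher and 1 lower (4 as TPM, median 0.87). Tomm40, the pore of the outer membrane, read 32.9, 32.6 and 31.4 FPKM against 86.5, 88.0 and 88.7 (log2 difference 1.44 with SE 0.04, limma adjusted p = 2.13e-07), and the matrix chaperonin Hspd1 rose by 1.29. Timm17b was the 1 gene called lower (log2 difference -0.16 with SE 0.06, limma adjusted p = 0.028), and its call was lost without replicate a or b of BME plus COL1 (adjusted p up to 0.107 from limma). The 74 nuclear genes of oxidative phosphorylation stood at 44 higher and 5 lower in FPKM, but at 22 and 24 as TPM, 20 and 29 after quantile scaling and 23 and 21 without short genes. Cyc1, the cytochrome of complex III, had the largest rise (1.06) and Ndufv3 of complex I the largest fall (-0.48). In FPKM none of the 10 complex IV genes differed by more than 0.11 in either direction. As TPM 9 of them were called lower, after quantile scaling 10 and without short genes 8. In the TCA cycle 14 of 17 enzymes were higher (8 as TPM), from Fh1 (0.77) down, and Pcx, which refills the cycle from pyruvate, was the 1 called lower (-0.81, 3 genes as TPM).

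**Figure D2:**
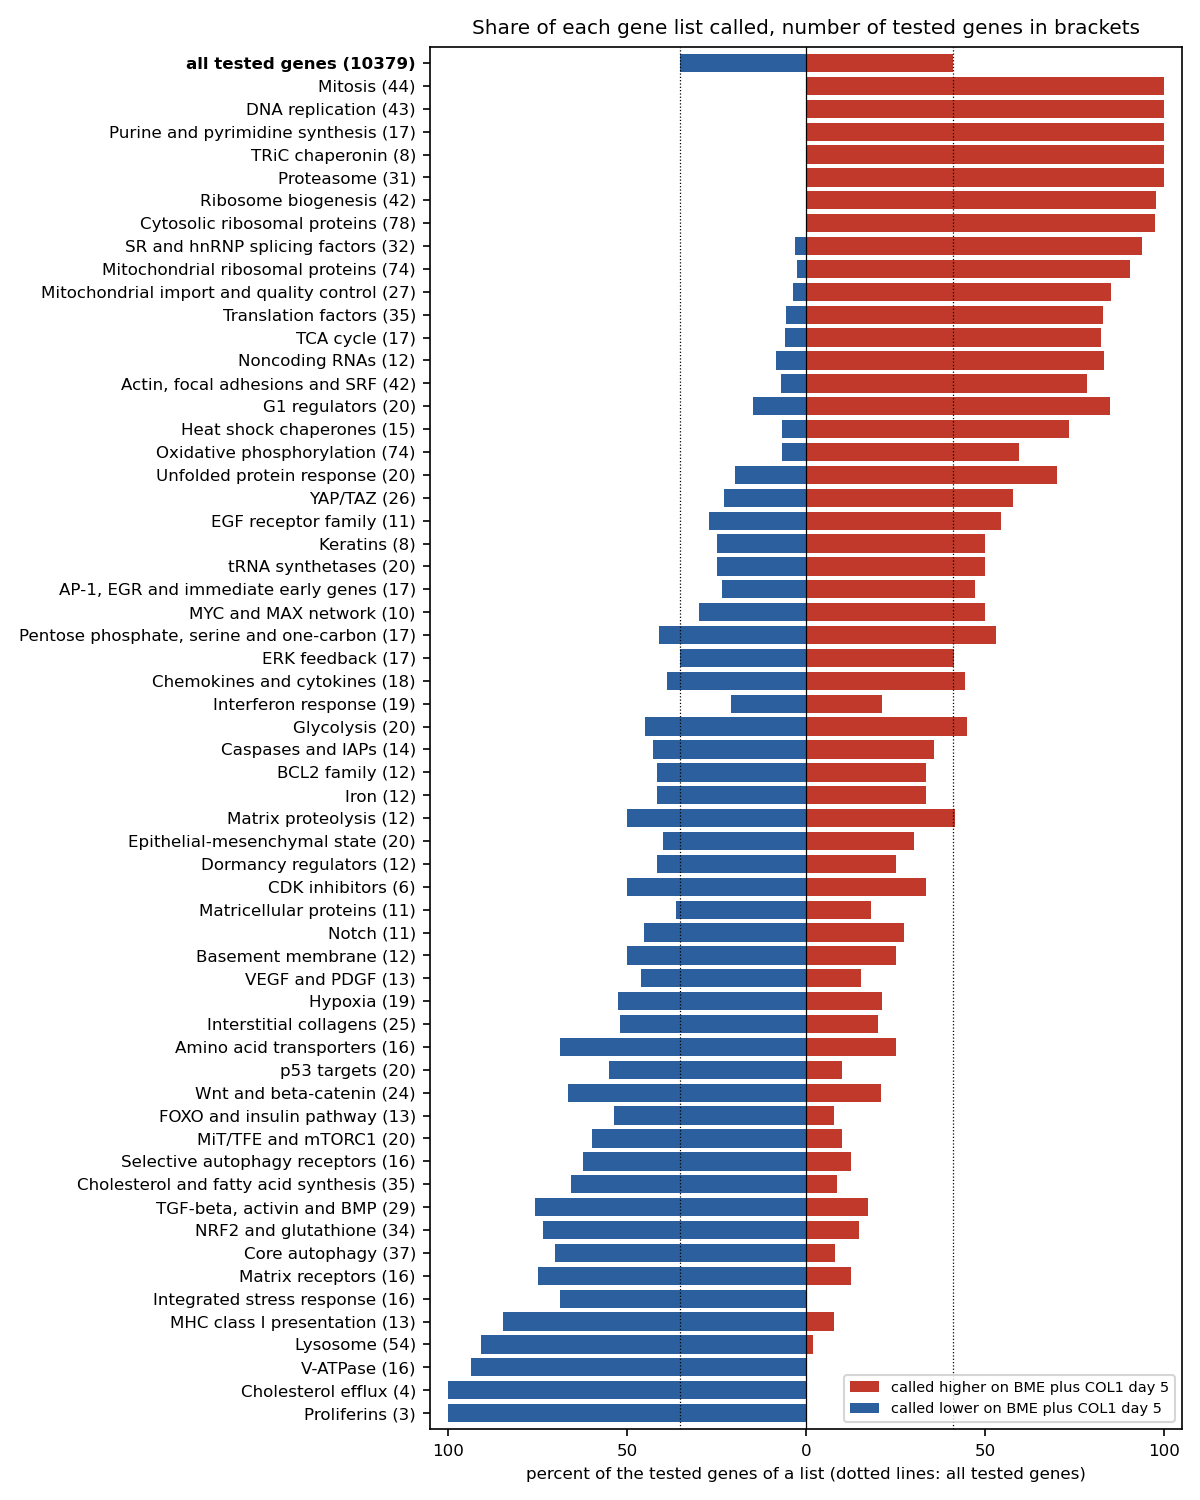
Share of the tested genes of each list called higher (red, to the right) and lower (blue, to the left) on BME plus COL1 day 5, with the number tested beside each name. Replication, mitosis, nucleotide synthesis, TRiC and the proteasome lie wholly to the right, and the lysosome, the V-ATPase and core autophagy lie mostly to the left.

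Early response genes, which growth signals induce within minutes, moved both ways. Of 17 tested genes of the AP-1, EGR and immediate early list 8 were called higher and 4 lower (median 0.35). Over all tested genes the shares were 41.0% higher and 35.3% lower. Fos, a subunit of the AP-1 factor, read 2.41, 3.11 and 4.48 FPKM at BME day 1 and 34.9, 36.8 and 27.8 on BME plus COL1 (log2 difference 3.31 with SE 0.21, limma adjusted p = 3.74e-06). Its relatives Fosb (2.83) and Fosl1 rose as well, the latter from 13.2, 11.8 and 16.7 to 23.7, 23.1 and 21.1 FPKM (log2 difference 0.71 with SE 0.12, limma adjusted p = 0.000842). Every BME plus COL1 library lay above every BME day 1 library for Fos, which on BME at day 5 had 1.41, 3.07 and 2.17 FPKM. Junb, another subunit, fell (-0.89), as did the factors Klf4 (-1.48) and Klf10 (-1.16), and Klf2 rose by 1.53. Egr1 was not called, with 41.1, 41.5 and 80.4 FPKM against 51.8, 50.4 and 46.4 (log2 difference -0.06 with SE 0.24, limma adjusted p = 0.832). Replicate c of BME day 1 stood high for Egr1, and without it the gene was called higher (0.26, adjusted p = 0.00182 from limma).

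Feedback inhibitors of ERK, the kinase downstream of most growth factor receptors, are listed here with ETV factors. In FPKM 7 of the 17 tested genes were called higher and 6 lower (median 0.04), and as TPM 3 and 9. The FPKM counts lie near the shares of all tested genes, 41.0% higher and 35.3% lower. The phosphatases Dusp1 (1.42) and Dusp14 (1.13) rose and Dusp4 (-1.01) fell. Dusp6, which acts on ERK in the cytoplasm, read 5.89, 6.51 and 7.66 FPKM against 10.1, 9.70 and 9.58 (log2 difference 0.55 with SE 0.09, limma adjusted p = 0.000875). Of the Sprouty, SPRED and ETV genes 4 were called lower and 2 higher. Spred2 (-0.53) and Spry2 (-0.33) fell, whereas Spry4 was higher (0.25). The ERK-responsive factor Etv1 fell by 1.15 on the log2 scale and its relative Etv4 was higher (0.34). The calls of Spry4 and Etv4 were lost as TPM, and that of Spry4 also without replicate b of BME day 1 or a or b of BME plus COL1 (adjusted p up to 0.0708 from limma).

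Ligands of the EGF receptor family moved in opposite directions while the 2 receptors tested differed by little. Of the 4 receptors 2 did not reach a mean of 1 FPKM. Erbb2 was called higher (log2 difference 0.26), a call lost as TPM. Areg (amphiregulin) went from 16.2, 17.1 and 36.2 to 43.4, 37.9 and 40.6 FPKM (log2 difference 0.91 with SE 0.28, limma adjusted p = 0.0177). BME day 1 replicate c stood close to the BME plus COL1 libraries for Areg, and the call was lost without replicate a or b of BME day 1 or a or c of BME plus COL1 (adjusted p up to 0.0649 from limma). Nrg1 (neuregulin 1, 1.36) and Hbegf (1.19) rose too, and Tgfa fell (-1.49). Btc was called lower (-0.66), but not without any 1 replicate of BME plus COL1 (adjusted p up to 0.135 from limma). Egfr was not called (13.9, 16.4 and 14.7 against 13.6, 14.4 and 12.6 FPKM, log2 difference -0.14 with SE 0.08, limma adjusted p = 0.114), though it was called lower as TPM (-0.37). The receptor inhibitors Lrig1 (1.02) and Errfi1 (0.88) were higher and Lrig2 lower (-0.86). In all, 6 of 11 tested genes were higher and 3 lower.

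Chemokines that act on the receptor CXCR2, which recruits neutrophils, were among the largest rises. Ppbp (CXCL7) read 0.856, 1.36 and 0.897 FPKM at BME day 1 and 15.1, 14.7 and 14.3 on BME plus COL1 (log2 difference 3.73 with SE 0.15, limma adjusted p = 5.79e-07). Cxcl3 rose by 2.74, and Cxcl5 went from 47.5, 51.4 and 33.6 to 185, 188 and 184 FPKM (log2 difference 2.09 with SE 0.14, limma adjusted p = 5.39e-06). Cxcl1 had 18.7, 17.6 and 8.28 against 31.0, 31.7 and 28.9 FPKM (log2 difference 1.12 with SE 0.28, limma adjusted p = 0.0066). None of these 4 overlapped between the groups, beside 79.9% of all tested genes without overlap. On BME at day 5 Ppbp was at 0.129, 0.119 and 0.0680 FPKM and Cxcl5 at 20.7, 8.0 and 14.3. Ccl20, a ligand of CCR6, rose by 4.1 and the neutrophil growth factor Csf3 by 1.99. Going the other way were Cxcl16 (-2.91), a membrane-bound chemokine, Ccl2 (-1.47), Il15 (-1.56) and Lif (-1.07). Of 34 chemokines and cytokines 18 were tested. Of these 8 were called higher, all of them by at least 2-fold, and 7 lower, 4 of them by at least 2-fold (median 0.70). The shares of all tested genes were 41.0% higher and 35.3% lower, and by at least 2-fold 7.64% and 9.0%.

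**Figure D3:**
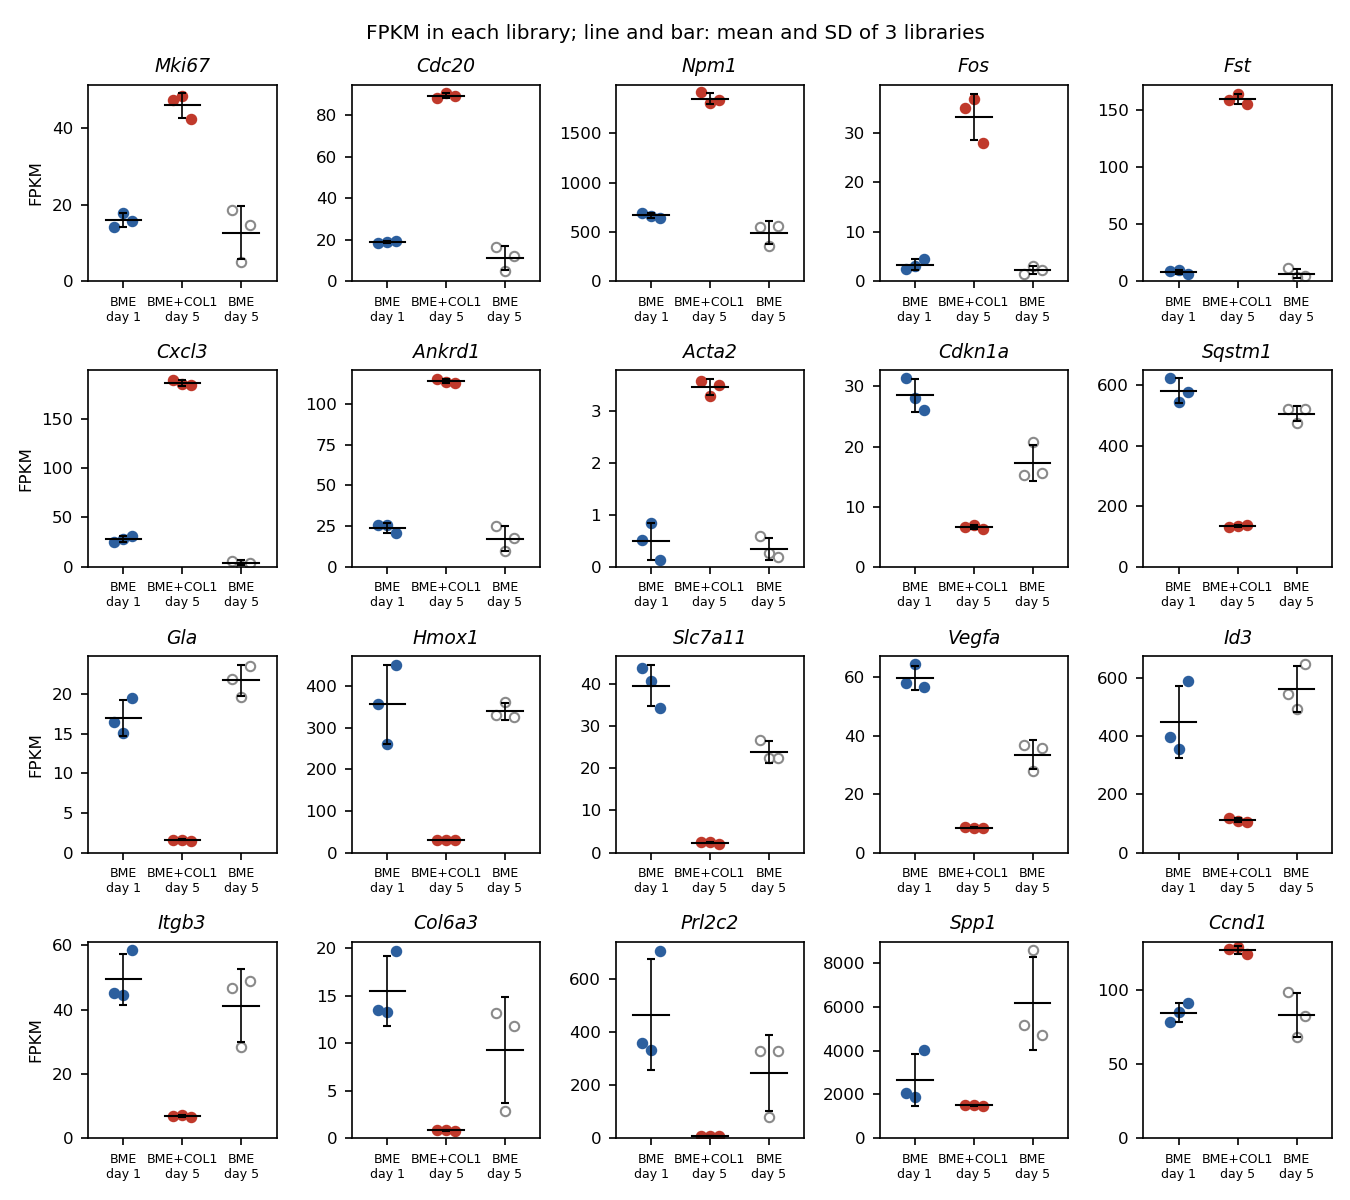
FPKM of 20 genes (y axis, linear and starting at 0, with its own range in each panel) at BME day 1, BME plus COL1 day 5 and BME day 5 (x axis), with 1 point for each replicate and the mean and SD as line and bar. The points of BME day 1 and BME plus COL1 stand apart for genes such as Fos, Cdc20, Hmox1 and Slc7a11, and BME day 5 is drawn as a description.

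Receptors for the matrix fell more often than they rose, with 12 of 16 tested genes called lower and 2 higher (median -0.58). The 2 rises were Itga3 (0.92) and Itga6, both α chains of laminin receptors, and Itga6 went from 43.3, 45 and 48.3 to 68.3, 70.1 and 61.4 FPKM (log2 difference 0.55 with SE 0.07, limma adjusted p = 0.000124). Itgb3, the partner of the αv chain in a receptor for vitronectin and fibronectin, read 45.2, 44.6 and 58.6 FPKM at BME day 1 and 7.02, 7.21 and 6.66 on BME plus COL1 (log2 difference -2.80 with SE 0.10, limma adjusted p = 4e-07). Its groups were far apart, and BME day 5 cultures held 46.8, 28.3 and 48.8 FPKM. Itgb4 (-1.37), the β chain of the hemidesmosomal integrin, and Itgb8 (-1.58) fell. Both collagen receptor kinases were lower, Ddr1 by -2.02 and Ddr2 by -0.59. Itgb1, shared by most of these receptors, fell slightly from 379, 399 and 418 to 339, 334 and 329 FPKM (log2 difference -0.25 with SE 0.05, limma adjusted p = 0.0015). The collagen-binding chain Itga2 did not reach the filter of 1 FPKM.

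The actin cytoskeleton rose broadly. Of 42 tested genes of actin, focal adhesions and SRF 33 were called higher and 3 lower (7 as TPM, median 0.50). Actb (β-actin) read 771, 719.6 and 831 FPKM against 1523, 1483 and 1617 (log2 difference 0.99 with SE 0.06, limma adjusted p = 4.12e-06) without overlap. The actin-binding calponin Cnn2 rose by 1.40, Fhl1, a LIM protein of muscle, by 1.89 and the LIM protein Csrp1 by 1.05. Smooth muscle actin Acta2 rose by 2.79 from low levels. SRF, the factor that reads the state of actin, was higher (0.69), while its cofactors Mkl1 (-0.61) and Mkl2 (-0.47) and the adhesion scaffold paxillin (Pxn, -0.58) were lower.

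YAP and TAZ are cofactors that enter the nucleus in spread cells. Of 26 genes of the pathway 15 were called higher and 6 lower (median 0.28), and the lower count was 3 without replicate a or c of BME plus COL1. Targets led the rises. Ankrd1 went from 25.6, 25.9 and 20.5 to 115, 113 and 113 FPKM (log2 difference 2.25 with SE 0.09, limma adjusted p = 4.6e-07). Ctgf, a secreted matricellular protein, had 18.1, 19.9 and 6.27 against 40.7, 41.6 and 41.3 FPKM (log2 difference 1.64 with SE 0.39, limma adjusted p = 0.0053), and Cyr61 139, 125 and 183 against 327, 334 and 323 (log2 difference 1.16 with SE 0.13, limma adjusted p = 7.39e-05). The 3 targets did not overlap between the groups. Amotl2, an inhibitor of YAP that is itself a target, rose by 1.45. Yap1 differed by 0.20 and as TPM by -0.03, and Wwtr1 (TAZ) by -0.20. Both calls were lost without replicate a of BME day 1 or a or b of BME plus COL1, that of Yap1 also without BME day 1 replicate b and that of Wwtr1 also without BME plus COL1 replicate c (adjusted p up to 0.0633 and 0.136 from limma). Foxf2 was the largest fall (-1.16), and the receptor kinase Axl, often counted as a target, was not called (0.08) except without replicate c of BME day 1 (0.16, adjusted p = 0.00703 from limma).

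Genes for the basement membrane itself were mixed. Of 12 tested members 3 were called higher and 6 lower (median -0.35), and 11 others did not reach 1 FPKM, Col4a1 among them. The laminin chains parted. Lama4 (1.97) and Lamc1 (0.65) rose. Lamb3, a laminin chain of epithelial basement membranes, fell instead, from 34.1, 41.4 and 26.3 to 6.48, 6.56 and 6.07 FPKM (log2 difference -2.37 with SE 0.15, limma adjusted p = 3.34e-06). Col4a5 (-1.17) and Col18a1 (-1.13), both basement membrane collagens, were lower.

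Genes of interstitial collagens and of their processing fell more than they rose, with 13 of 25 tested genes called lower and 5 higher (median -0.28). Of 11 collagen chains 8 were lower and 1 higher (median -0.75). Of 14 genes of hydroxylation, folding and crosslinking 5 were lower and 4 higher (median -0.05). Col6a3, a chain of the microfibril-forming type VI collagen, read 13.5, 13.3 and 19.7 FPKM at BME day 1 and 0.869, 0.873 and 0.781 on BME plus COL1 (log2 difference -4.03 with SE 0.15, limma adjusted p = 4.16e-07). Col7a1, which anchors basement membranes, fell by 2.56 on the log2 scale, and P4ha3, a prolyl hydroxylase of collagen, fell by 2.66. Col8a1 (1.91) and Pcolce (1.70), an enhancer of procollagen cleavage, were the largest rises. The added COL1 is protein in the gel and is not counted by sequencing, and the cells' own Col1a1 was low and lower still on BME plus COL1 (2.83, 3.24 and 1.85 against 1.54, 1.46 and 1.46 FPKM).

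Genes of matrix proteolysis, proteases and their inhibitors together, changed strongly in both directions. Of 12 tested genes 5 were higher and 6 lower. All 4 tested metalloproteinases were lower. Of 3 TIMPs 1 was higher and 1 lower, and of 5 genes of the plasminogen system 4 were higher and 1 lower. Serpinb2, an inhibitor of plasminogen activators, stood below 0.1 FPKM at BME day 1 (0.0726, 0.0935 and 0.0731) and at 4.57, 4.57 and 4.53 on BME plus COL1 (log2 difference 4.70 with SE 0.15, limma adjusted p = 3.01e-07). Plau (urokinase) went from 27.0, 27.3 and 23.3 to 54.4, 57.3 and 56.1 FPKM (log2 difference 1.11 with SE 0.07, limma adjusted p = 3.07e-06). Both genes were apart between the groups. Collagenase 3 (Mmp13) fell from 7.99, 6.15 and 3.60 to 0.171, 0.268 and 0.204 FPKM (log2 difference -4.20 with SE 0.28, limma adjusted p = 5.28e-06), and on BME at day 5 it read 36.7, 11.9 and 45.5. Mmp28 fell by 2.79 and the inhibitor Timp3 fell by 1.13, while Timp1 rose by 0.76. Mmp3 did not reach the filter.

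Matricellular proteins signal from the matrix without building it. Of 11 tested genes 2 were called higher and 4 lower, beside 41.0% and 35.3% of all tested genes. Postn (periostin) fell from 4.59, 3.17 and 3.66 to 0.166, 0.121 and 0.121 FPKM (log2 difference -4.04 with SE 0.19, limma adjusted p = 1.05e-06) and Wisp2 fell by 2.23 on the log2 scale. Spp1 (osteopontin), among the most abundant mRNAs of the cells, went from 2069.8, 1887 and 4013 to 1519, 1514 and 1461 FPKM (log2 difference -0.74 with SE 0.25, limma adjusted p = 0.0281). The groups of these 3 genes did not overlap, but the call of Spp1 was lost without any 1 replicate of BME plus COL1 (adjusted p up to 0.0968 from limma). Tnc (tenascin C, 1.63) and Sparc (0.39) rose. Fn1 (0.13, adjusted p = 0.275 from limma) and Thbs1 (0.07, adjusted p = 0.483 from limma) were not called, and Fn1 was called higher without replicate c of BME day 1 (0.23, adjusted p = 0.0085 from limma).

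Growth factors for vessels and stroma were lower where they changed most. Vegfa, the main signal for new vessels, read 58.0, 64.4 and 56.6 FPKM at BME day 1 and 8.60, 8.55 and 8.35 on BME plus COL1 (log2 difference -2.80 with SE 0.06, limma adjusted p = 1.19e-07), and BME day 5 cultures had 36.9, 27.8 and 35.8. The PDGF receptors Pdgfra (-2.49) and Pdgfrb (-3.54) fell, and the ligand Pdgfd rose by 1.27. Of 13 tested genes of the VEGF and PDGF list 6 were lower (10 as TPM) and 2 higher, the latter 1 as TPM and without replicate a or b of either group.

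The TGF-β superfamily, which restrains growth of epithelial cells, was mostly lower. Of 29 tested genes 22 were called lower and 5 higher (median -0.71). Its antagonist follistatin (Fst) was the exception in size, at 8.62, 9.32 and 5.90 FPKM at BME day 1 and 159, 164 and 155 on BME plus COL1 (log2 difference 4.33 with SE 0.15, limma adjusted p = 3.51e-07). Follistatin binds activin, whose subunit Inhba fell by 1.55 on the log2 scale. On BME at day 5 Fst stood at 11.3, 3.45 and 4.78 FPKM, near its BME day 1 values. Tgfb1 (-1.44) and Tgfb3 (-1.27) fell, and Tgfb2 differed by -0.19 (18.9, 17.5 and 16.9 against 15.6, 16.3 and 14.8 FPKM, adjusted p = 0.0237 from limma), a call lost without replicate a of BME day 1 or a or c of BME plus COL1 (adjusted p up to 0.0829 from limma). Targets of BMP signalling were lower together. Id1 went from 199, 187 and 268 to 99.7, 99.1 and 98.6 FPKM (log2 difference -1.12 with SE 0.12, limma adjusted p = 7.72e-05), Id3 fell by 1.98 and the inhibitory Smad6 fell by 1.70. Tgfbr2 (0.82) and Smad3 (0.98) rose.

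In the Wnt list 16 of 24 tested genes were called lower and 5 higher (2 as TPM), with a median of -0.42, while 25 did not reach 1 FPKM, Axin2 among them. Ctnnb1 (β-catenin) read 523, 493 and 629 FPKM against 219, 226 and 214 (log2 difference -1.31 with SE 0.09, limma adjusted p = 4.72e-06) without overlap. Its partner Tcf7l2 (-1.54) and the ligand Wnt9a (-1.76) fell. The receptor Ror1 rose by 1.51. Notch ligands parted, with Jag1 going from 50.1, 57.3 and 59.1 to 12.1, 13.1 and 11.8 FPKM (log2 difference -2.16 with SE 0.07, limma adjusted p = 3.11e-07) and Dll4 rising by 1.91. Of 11 Notch genes 3 were higher (5 without replicate c of BME day 1) and 5 lower. Of 13 genes of the FOXO and insulin pathway 7 were lower and 1 was higher (2 without replicate c of BME day 1). Ccng2, a cyclin that FOXO factors induce in resting cells, fell from 12.3, 11.9 and 13.7 to 1.8, 2.12 and 1.96 FPKM (log2 difference -2.63 with SE 0.08, limma adjusted p = 2.62e-07), and Pik3ip1, a brake on PI3K, fell by 1.87. Igfbp4 rose (0.71), and Irs2 was not called (-0.13) except without replicate c of BME day 1 (-0.29, adjusted p = 0.00147 from limma).

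**Figure D4:**
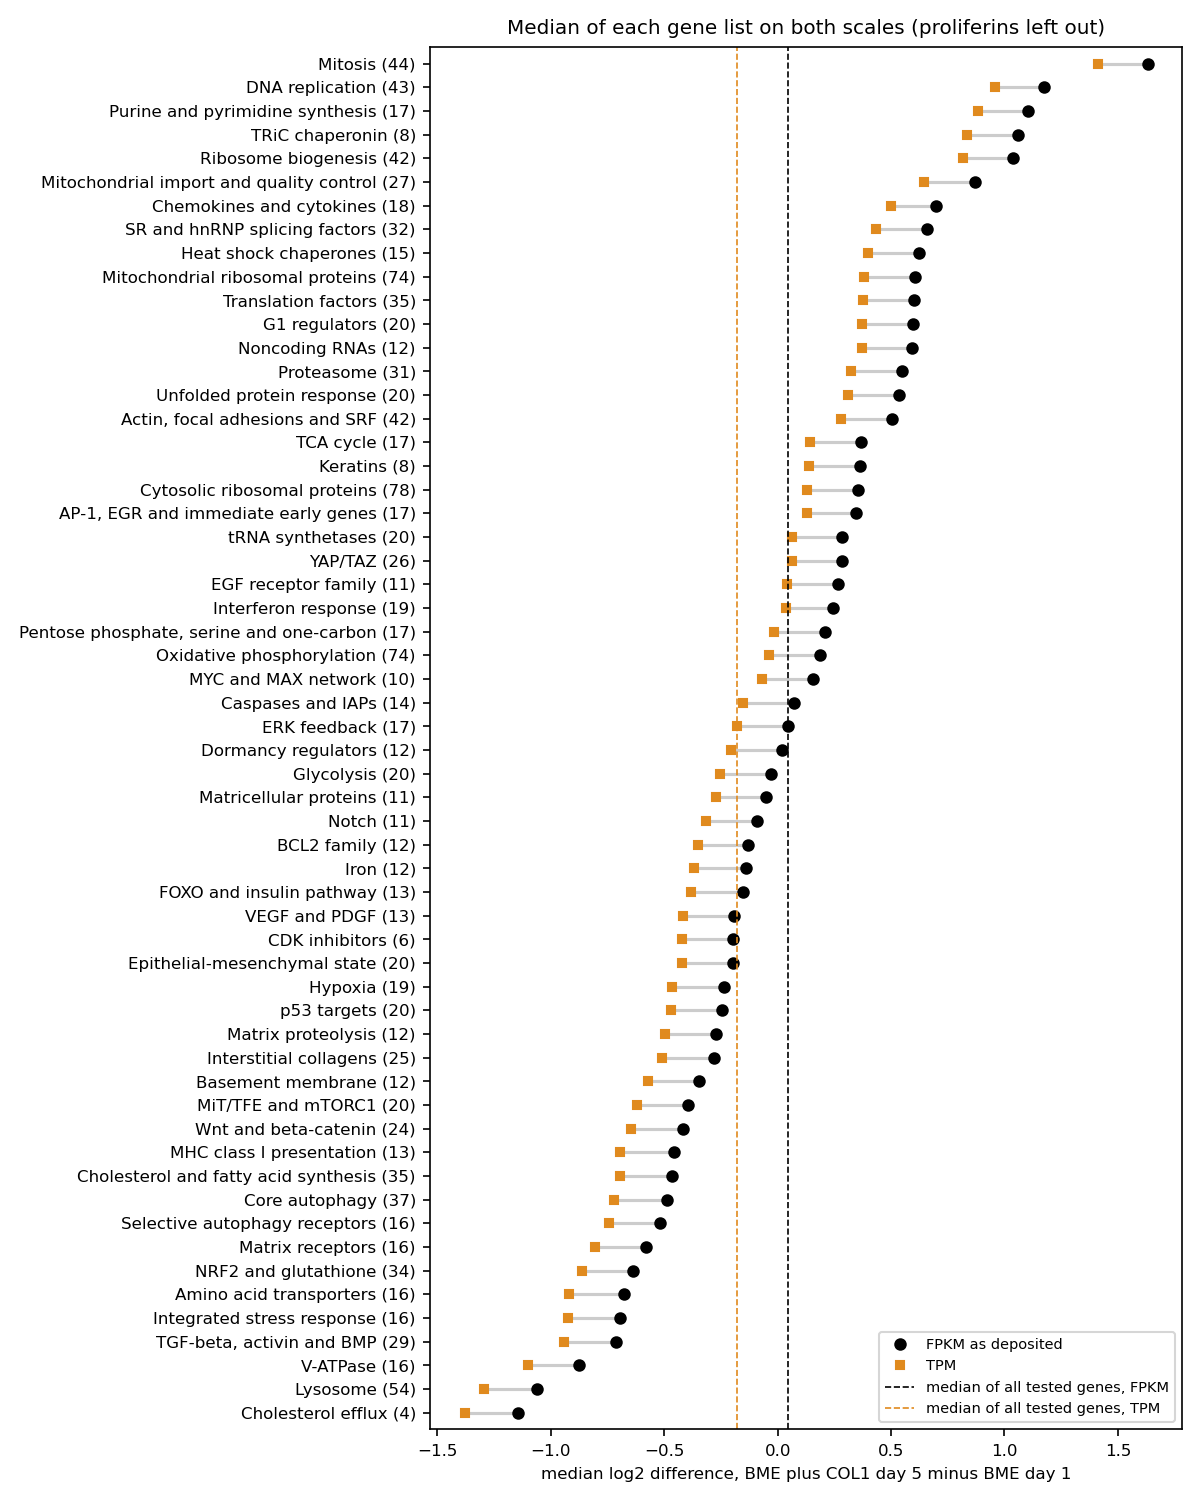
Median log2 difference of the tested genes of each gene list (x axis), on the FPKM scale (black circles) and as TPM (orange squares), with the medians over all tested genes as dashed lines and the proliferins left out. On both scales mitosis (1.63 and 1.41) lies at the upper end and cholesterol efflux (-1.14 and -1.38, 4 genes) at the lower end, and lists between them such as oxidative phosphorylation and the MYC network change sign from FPKM to TPM.

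Autophagy encloses cytoplasm in a membrane and delivers it to the lysosome. Of 37 tested core genes 26 were called lower, 5 of them by at least 2-fold, and 3 higher (1 as TPM), with a median of -0.49. By role, the genes of the kinase and PI3K complexes that start it were lower in Pik3r4 (-1.08) and Ulk2 (-0.94), and Becn1 differed by little (44.8, 43.8 and 47.9 against 38.8, 39.1 and 37.6 FPKM, log2 difference -0.24 with SE 0.05, limma adjusted p = 0.00227). Tecpr1, which tethers autophagosomes to lysosomes, had the largest fall of the core genes, from 23.8, 21.9 and 25.5 to 4.77, 4.77 and 4.27 FPKM (log2 difference -2.34 with SE 0.07, limma adjusted p = 2.57e-07), and Zfyve1 (DFCP1), a marker of the membrane where autophagosomes form, fell by 2.06. Gabarap, an ATG8 protein, went from 269, 247 and 284 to 96.0, 94.0 and 99.7 FPKM (log2 difference -1.46 with SE 0.06, limma adjusted p = 4.9e-07). No library of one group reached into the other for Tecpr1 or Gabarap. Rises in the core list were small, with Wdr45b at 0.42 and Atg3 at 0.38, the latter not called as TPM.

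Receptors that pick cargo for autophagy were mostly lower too. Of 16 tested genes 10 were called lower, 7 by at least 2-fold, and 2 higher (1 as TPM and without replicate a or b of BME day 1 or any replicate of BME plus COL1). Calcoco1 read 16.6, 14.0 and 15.7 FPKM at BME day 1 and 1.92, 1.71 and 1.74 on BME plus COL1 (log2 difference -3.04 with SE 0.08, limma adjusted p = 2.13e-07). Bnip3, a mitophagy receptor that hypoxia induces, fell by 2.52 on the log2 scale. Sqstm1 (p62) stood at 626, 545 and 579 against 131, 134 and 138 FPKM. The rise of 2-fold was Phb2 (1.13), a mitochondrial inner membrane protein that also belongs to the import and quality control list.

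Lysosomal genes fell nearly throughout. Of 54 tested genes 49 were called lower, 30 by at least 2-fold, and 1 higher (2 without replicate a of BME day 1), with a median of -1.06. Gla (α-galactosidase A) read 16.5, 15.1 and 19.5 FPKM against 1.65, 1.64 and 1.51 (log2 difference -3.32 with SE 0.10, limma adjusted p = 2.44e-07). Ctsd, the aspartic protease of the lysosome, went from 377, 363 and 426 to 167, 169 and 172 FPKM (log2 difference -1.20 with SE 0.06, limma adjusted p = 1.6e-06) and the membrane protein Lamp1 from 403, 374 and 434 to 228, 226 and 223 (log2 difference -0.84 with SE 0.06, limma adjusted p = 6.23e-06). The groups of all 3 were apart, and on BME at day 5 Ctsd was at 501, 659 and 545 FPKM. Acid lipase Lipa (-2.51), the cystine exporter Ctns (-2.35) and Gpnmb (-4.0), a glycoprotein of lysosomes and melanosomes, fell as well. The 1 rise was Gm2a (0.78), an activator protein of ganglioside breakdown. The proton pump that acidifies the lysosome followed, with 15 of 16 V-ATPase genes lower (median -0.88), and its stalk subunit Atp6v1g1 went from 384, 379 and 470.1 to 78.2, 75.9 and 79.3 FPKM (log2 difference -2.39 with SE 0.08, limma adjusted p = 3.37e-07). Of 20 tested genes of the MiT/TFE factors, which switch on lysosomal genes, and of mTORC1 12 were lower and 2 higher (0 as TPM). Fnip1 (-1.36) and Flcn (-1.20), which release these factors to mTORC1 control, fell, and Rheb, the activator of mTORC1, rose by 0.30, a call that was lost as TPM.

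The E-box was present in promoters of 15 of 44 lysosomal genes (34.1%), against the 12.3% of tested genes given above for the ribosome list. Gla, with the largest fall of the acid hydrolases, and Lamp1 are shown with the E-boxes in capitals. They and Nop2 hold the same letters, while Nop2 was higher and Gla and Lamp1 were lower.
Gla (chrX:134601006-134601255, minus strand, 227 and 194 bases before the start): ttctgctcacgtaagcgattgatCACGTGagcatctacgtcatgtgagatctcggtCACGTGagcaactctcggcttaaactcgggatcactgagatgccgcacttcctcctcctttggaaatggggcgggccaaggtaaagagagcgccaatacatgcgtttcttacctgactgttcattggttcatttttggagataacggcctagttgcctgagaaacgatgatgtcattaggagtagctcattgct
Lamp1 (chr8:13158911-13159160, plus strand, 61, 45, 28 and 15 bases before the start): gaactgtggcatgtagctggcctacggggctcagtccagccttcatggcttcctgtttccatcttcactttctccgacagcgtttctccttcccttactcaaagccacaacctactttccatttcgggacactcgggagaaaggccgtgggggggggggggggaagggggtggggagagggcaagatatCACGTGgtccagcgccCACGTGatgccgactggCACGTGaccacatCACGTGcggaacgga

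Glycolysis was even in count, with 9 of 20 tested genes called higher and 9 lower (median -0.03). The rises were abundant general isoforms, such as the lactate exporter Slc16a1 (0.82), Eno1 (0.74) and Ldha, which went from 341, 335 and 337 to 539, 531 and 545 FPKM (log2 difference 0.67 with SE 0.04, limma adjusted p = 2.03e-06). The falls were led by low isoforms that other tissues use, Eno2 (-3.26) and Aldoc (-2.41). Hk2 read 8.43, 9.22 and 6.64 FPKM against 9.93, 10.4 and 10.2 (log2 difference 0.34 with SE 0.11, limma adjusted p = 0.0235), and its call was lost as TPM and without any 1 replicate of BME plus COL1 (adjusted p up to 0.0787 from limma). Sterol and fatty acid synthesis was lower in 23 of 35 genes and higher in 3 (0 as TPM), with a median of -0.47. Fdft1, which makes squalene, fell by 1.12 and Insig1, the sterol-sensing anchor, fell by 1.06. All 4 tested genes of cholesterol efflux were lower too, with the oxysterol receptor Nr1h3 (LXRα) at -1.71.

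Targets of NRF2, the factor that answers oxidants, fell. In this list 25 of 34 tested genes were called lower, 12 by at least 2-fold, and 5 higher (2 as TPM), with a median of -0.64. Hmox1 (heme oxygenase 1) read 358, 259.8 and 450.4 FPKM at BME day 1 and 30.1, 29.2 and 30.8 on BME plus COL1 (log2 difference -3.53 with SE 0.17, limma adjusted p = 1.16e-06). Nqo1, a quinone reductase, went from 411, 424 and 585 to 91.6, 95.3 and 90.9 FPKM (log2 difference -2.33 with SE 0.12, limma adjusted p = 1.7e-06). Slc7a11, which imports cystine for glutathione, had 43.8, 40.7 and 34.2 against 2.42, 2.42 and 2.13 FPKM (log2 difference -4.03 with SE 0.10, limma adjusted p = 1.87e-07). Each of the 3 was far below its BME day 1 range, and BME day 5 cultures held 331, 363 and 325 FPKM of Hmox1. Mgst1, a membrane-bound glutathione transferase, fell by 3.01 and Gsta1 fell by 2.41. Gsta1 and Gsta2 are near-identical and may share reads, and their sum was 148 ± 4.04 FPKM (SD, n = 3) against 27.7 ± 0.311. The peroxidases Prdx3 (0.73) and Prdx6 (0.62) rose. The antioxidant response motif TGACNNNGC was in promoters of 8 of 28 list genes (28.6%), against 17.0% of tested genes and 14.0% of all genes of the table. Mgst1 is shown with its match in capitals.
Mgst1 (chr6:138140277-138140526, plus strand, 56 bases before the start): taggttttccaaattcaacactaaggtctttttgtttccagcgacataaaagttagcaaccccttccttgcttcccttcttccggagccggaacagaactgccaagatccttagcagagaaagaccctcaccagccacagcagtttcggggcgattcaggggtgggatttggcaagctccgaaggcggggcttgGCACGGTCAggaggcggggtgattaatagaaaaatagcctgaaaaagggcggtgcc

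Genes of iron uptake, storage and export moved both ways. Tfrc, the transferrin receptor, rose from 47.4, 48.9 and 46.9 to 114, 117 and 109 FPKM (log2 difference 1.25 with SE 0.04, limma adjusted p = 3.51e-07). Slc40a1 (ferroportin), the one known iron exporter, fell from 8.25, 6.83 and 7.55 to 0.113, 0.173 and 0.159 (log2 difference -4.95 with SE 0.15, limma adjusted p = 2.46e-07). Ferritin light chain Ftl1 went from 3531, 3503 and 4369 to 903, 841 and 911 FPKM (log2 difference -2.10 with SE 0.09, limma adjusted p = 6.57e-07). Groups were apart in the 3 genes, and Slc40a1 read 12.7, 24.5 and 15.1 on BME at day 5. The ferrireductase Steap3, which acts in the uptake of iron from transferrin, fell by 2.17. Of 12 tested genes 4 were higher (1 as TPM, Tfrc) and 5 lower.

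Amino acid transporters were lower in 11 of 16 cases and higher in 4 (2 as TPM, median -0.68). Slc7a5, which takes up leucine and other large amino acids, went from 51.7, 45.3 and 30.0 to 79.6, 80.3 and 75.9 FPKM (log2 difference 0.93 with SE 0.18, limma adjusted p = 0.00173), and the glutamine carrier Slc1a5 rose by 0.60. Slc43a2, a carrier of the same amino acids as Slc7a5, fell by 2.56. The integrated stress response, which slows translation and induces ATF4, had no member called higher and 11 of 16 lower (median -0.69). Trib3 (-1.86) and Vldlr (-1.78) fell most, and Ddit3 (CHOP) went from 40.5, 35.6 and 33.8 to 25.1, 25.6 and 25.7 FPKM (log2 difference -0.52 with SE 0.07, limma adjusted p = 0.000217). Asns, an ATF4 target, was not called (78.6, 68.0 and 44.4 against 53.4, 52.0 and 51.8 FPKM, adjusted p = 0.263 from limma), nor was Atf4 (-0.02). Without replicate c of BME day 1, Asns was called lower (-0.48, adjusted p = 0.000152 from limma).

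Among regulators of cell death, the BCL2 family had 4 of 12 tested genes higher (1 as TPM) and 5 lower. Bcl2l11 (BIM), which triggers death in cells that lose matrix contact, read 10.1, 9.18 and 13.2 FPKM at BME day 1 and 3.95, 4.19 and 3.60 on BME plus COL1 (log2 difference -1.43 with SE 0.13, limma adjusted p = 2.68e-05), and on BME at day 5 13.0, 18.3 and 16.2. The survival protein Bcl2l1 (BCL-XL) went from 35.9, 34.3 and 30.3 to 41.8, 42.7 and 43.0 FPKM (log2 difference 0.35 with SE 0.07, limma adjusted p = 0.00166). That call was lost as TPM (0.12), while the fall of Bcl2l11 remained (-1.67). Of 14 caspases and inhibitors of apoptosis 5 were higher (2 as TPM, 3 without replicate a or b of either group) and 6 lower, with the initiator Casp8 higher (0.53) and the inflammatory Casp1 lower (-2.0). Targets of p53 were lower in 11 of 20 cases and higher in 2 (4 without replicate c of BME day 1). Trp53inp1 fell from 4.14, 3.67 and 2.29 to 0.113, 0.0617 and 0.0683 FPKM (log2 difference -4.23 with SE 0.27, limma adjusted p = 3.68e-06) and Plk2 rose by 0.98. Mdm2 differed by -0.20 and was not called without replicate c of BME plus COL1 (adjusted p = 0.0883 from limma) or with a replicate block, and Trp53 itself was not called (0.02, but called lower at -0.20 as TPM).

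Genes that present antigen on MHC class I were lower in 11 of 13 cases (7 without replicate a or c of BME plus COL1, or over all 9 libraries) and higher in 1, the proteasome subunit Psmb10 (0.75). B2m, the light chain of class I molecules, went from 342, 320.1 and 421 to 191, 188 and 184 FPKM (log2 difference -0.93 with SE 0.09, limma adjusted p = 4.68e-05), and Tapbpl, which edits the bound peptides, fell by 1.65. Interferon response genes were split, with 4 of 19 higher (10 without replicate c of BME day 1), 4 lower (7 as TPM) and 11 not called. Irf7 read 0.411, 0.523 and 1.53 FPKM at BME day 1, so replicate c alone stood high there, and 2.02, 2.09 and 1.93 on BME plus COL1 (log2 difference 1.39 with SE 0.39, limma adjusted p = 0.0125).

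Keratins of simple epithelium rose. Krt8 went from 859, 878 and 778 to 1324, 1291 and 1324 FPKM (log2 difference 0.65 with SE 0.06, limma adjusted p = 1.85e-05) and Krt18, its partner in the same filament, rose by 0.66. Basal keratins parted, with Krt6a higher (3.92), Krt16 lower (-1.42) and Krt14 at 22.4, 24.4 and 23 against 16.2, 16.0 and 18.7 FPKM (log2 difference -0.45 with SE 0.07, limma adjusted p = 0.000499). Of 8 tested keratins 4 were higher and 2 lower (4 as TPM). Genes of the epithelial and mesenchymal states did not line up on one side, with 6 of 20 higher and 8 lower. Vim (vimentin) rose from 795, 766 and 704 to 1246, 1233 and 1293 FPKM (log2 difference 0.74 with SE 0.06, limma adjusted p = 9.54e-06) and S100a4 by 1.21, yet the mesenchymal factors Twist2 (-1.42) and Zeb1 (-1.39) fell. The tight junction protein Cldn1 rose by 1.92, the desmosomal proteins Jup (-1.36) and Dsp (-1.29) fell, and Cdh1 (E-cadherin) was not called (-0.13) except as TPM (-0.36) or without replicate a of BME day 1 (-0.19, adjusted p = 0.0446 from limma).

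Hypoxia genes were lower in 10 of 19 cases and higher in 4 (median -0.24). Hif1a, the oxygen-regulated factor, went from 41.3, 39.5 and 36.3 to 28.2, 28.2 and 26.0 FPKM (log2 difference -0.50 with SE 0.06, limma adjusted p = 0.00014), and of its targets Vegfa and Bnip3 fell, as given above, whereas Adm rose by 1.19. Of 12 tested genes tied to tumour cell dormancy 3 were higher and 5 lower, beside 41.0% and 35.3% of all tested genes. Nr2f1, an orphan receptor of dormant cells, had 1.18, 1.36 and 1.39 FPKM against 1.87, 1.99 and 1.99 (log2 difference 0.54 with SE 0.11, limma adjusted p = 0.00234). The clock repressors Bhlhe40 (-1.48) and Bhlhe41 (-1.03) fell and Mertk rose by 0.77. Host RNAs of snoRNAs, whose introns carry guides for ribosomal RNA, rose, so that 10 of 12 noncoding RNAs were higher and 1 lower (2 as TPM, median 0.59). Snhg3 led with 1.38, Gas5 went from 25, 26.2 and 24.2 to 40.8, 40.8 and 39.2 FPKM (log2 difference 0.68 with SE 0.05, limma adjusted p = 5.91e-06), the nuclear RNA Malat1 fell by 0.83 and Neat1 was not called (-0.15, called lower at -0.37 as TPM).

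**Figure D5:**
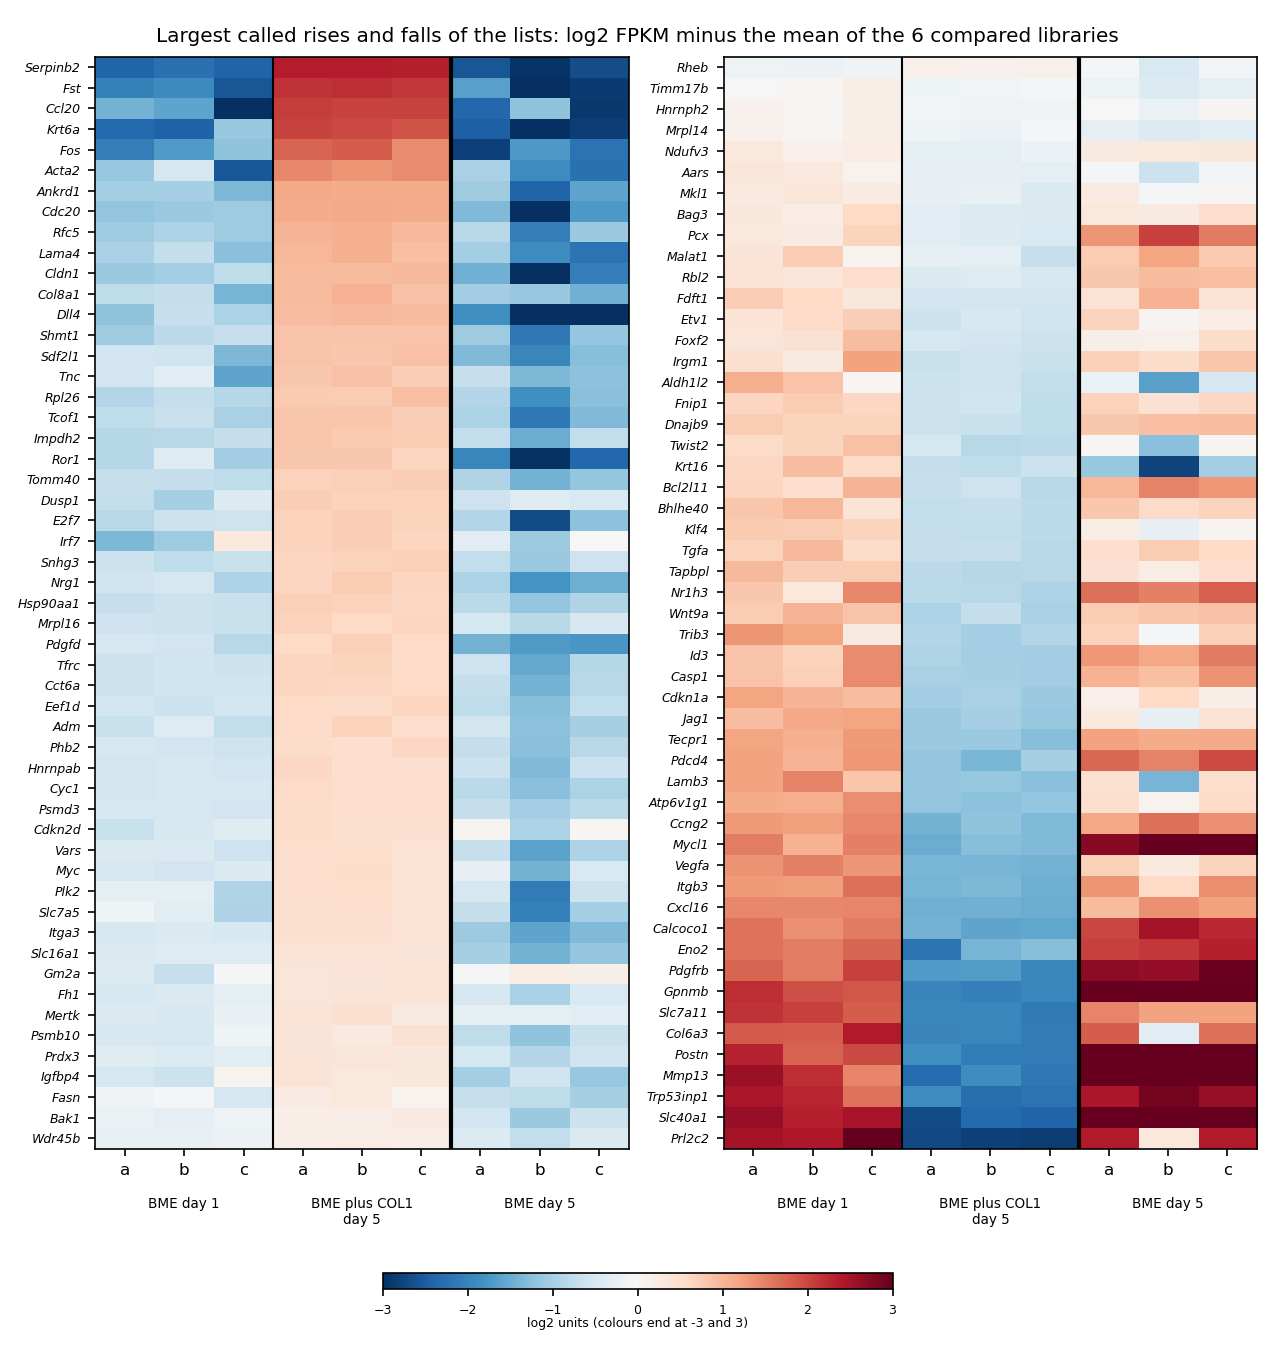
Heat map of the largest called rises and falls of the lists (54 genes higher and 51 lower), as log2 FPKM minus the mean of the 6 compared libraries, with 3 replicates a group in columns. The groups compared do not overlap in any of these genes, which were picked as the largest called differences of their lists. Of all tested genes 79.9% were without overlap. The BME day 5 columns are drawn as a description.

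The median furthest below 0 of any list was that of the proliferins (-4.86, or -5.09 as TPM, with all 3 tested genes called lower), prolactin-like hormones encoded by near-identical genes on chromosome 13. Prl2c2, Prl2c3 and Prl2c4 may share reads, so their sum is given, which was 692.8, 618.3 and 1409 FPKM at BME day 1 and 23.9, 23.5 and 22 on BME plus COL1, 39.2-fold lower. Replicate c of BME day 1 stood above the other 2 by more than 2-fold, and all 3 were far above BME plus COL1. The proteoglycan syndecan 3 (Sdc3) went from 58.7, 54.0 and 89.8 to 2.72, 2.82 and 2.75 FPKM (log2 difference -4.52 with SE 0.17, limma adjusted p = 4.25e-07), and its groups did not overlap. Also among the 12 largest falls were Mlph (-4.18), an adaptor of melanosome transport, and the lipid droplet protein Plin4 (-3.91).

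Of the largest rises not yet named, the matrix protease Adamts1 went from 8.84, 10.8 and 3.98 to 60.1, 62.9 and 56.9 FPKM (log2 difference 3.03 with SE 0.32, limma adjusted p = 6e-05), the S100 protein S100a7a from 1.17, 1.22 and 1.51 to 9.87, 9.56 and 10.7 (log2 difference 2.86 with SE 0.10, limma adjusted p = 3.74e-07) and the embryonic globin Hbb-bh1 from 1.82, 1.73 and 0.702 to 13.6, 14.4 and 14.7 (log2 difference 3.34 with SE 0.30, limma adjusted p = 2.57e-05). The groups were apart in all 3, and the long RNA U90926 rose by 3.75. The small RNAs Snord47, Snord96a and Snora65 and the microRNA precursors Mir3096b and Mir24-2 also passed the test, with standard errors from 1.84 to 3.41, and each was listed at 0 in 2 or more of the 6 libraries. Snord47 read 0, 3067 and 818 FPKM on BME plus COL1 and 0 in every BME day 1 library, so its fitted difference rests on 2 libraries and no fold is given. Each of these 5 calls was lost without 1 or another replicate of both groups (adjusted p up to 0.149 from limma).

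A separate set of 4 genes was under 0.1 FPKM in each BME day 1 library and at 2 FPKM or more in each BME plus COL1 library, and none went the other way. They were Serpinb2, given above, the short transcripts Gm12238 and Snora16a, and Ube2e2, a ubiquitin-conjugating enzyme. Ube2e2 (chromosome 14 from 19406091 to 19726141 of mm9) was listed at exactly 0 in all 3 BME day 1 and all 3 BME day 5 libraries and at 11.4, 10.1 and 10.5 FPKM on BME plus COL1. No fold is given against a group listed at 0.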

How the data were processed

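RNA was sequenced by the authors from D2.0R cells with a directional library kit on an Illumina HiSeq instrument, as 3 biological replicates of each of 3 groups. Tools in the submitters' processing notes are TopHat2 2.0.8, Trimmomatic 0.30, CASAVA 1.8.4 and Partek (version not given in the sources used here, as for Cufflinks), with mm9 and NCBIM37 as builds. The deposited values are FPKM of 30563 transcripts a library, which the authors' Cufflinks run scaled by transcript length and mapped fragments, another unit than raw counts, so no count model was used.

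From these, FPKM were summed over the transcripts of each gene symbol, and those whose mean reached 1 FPKM in the 6 libraries compared were kept. Differences of log2(FPKM + 0.1) between BME plus COL1 day 5 and BME day 1 were tested with limma 3.58.1 in R 4.3.3 (an intensity trend, 4 residual degrees of freedom, two-sided) and adjusted by Benjamini and Hochberg over 10379 genes. Because of the 0.1 added, a log2 difference understates the change of low genes. The study's own test worked on the alignments and is not repeated here. The fit was checked on simulated data first.

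Members and gene lists were chosen with earlier results of these data known, and no list was tested as a set. Named genes are the 12 largest rises and 12 largest falls among genes averaging 5 FPKM or more, up to 2 called rises and 2 called falls of each role in a list, and a fixed set of well-known genes, of which some are not reported here. Named after their values were seen are Atf4, Cdc25b, Cdkn2a, Col1a1, Eef1a1, Ftl1, Gm12238, Gsta2, Nop2, Npm1, Pdk1, Prl2c4, Rims2, Rn45s, Snora16a, Spry2, Steap3, Taf1b, Trp53, Wwtr1 and Yap1. Promoter windows came from RefSeq on GRCm38.p6 and were matched by symbol, or by a synonym that belongs to a single gene. No coordinate was carried over to mm9. Alternatives covered the pseudocount, the filter, TPM, median-ratio and quantile scaling, short genes, the transcript used, all 9 libraries, the trend, a replicate block and each library left out in turn.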

Additional observations from a re-analysis of the deposited data

How the results depend on the processing

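The count of genes called higher ran from 3881 to 4645 and that of genes called lower from 3264 to 3670 when each library was left out in turn, and the share of called genes that were higher from 52.7% to 55.9%. That share was 48.9% with no filter on low values, 60.2% with a mean of at least 5 FPKM (2387 genes lower), 36.7% as TPM, 50.2% after median-ratio scaling, 52.1% after quantile normalization, 37.7% without genes shorter than 300 nt, 52.6% with all 9 libraries in the fit and 45.9% at a log2 difference of at least 1 in size (793 higher and 934 lower). The median log2 difference was -0.024 with no filter, 0.126 with a mean of at least 5 FPKM, -0.179 as TPM, 0.000 after median-ratio scaling and -0.166 without short genes. The cause of these shifts was not tested beyond the change of scale itself. The setting without short genes also rescales each library to the same sum, as TPM does. With a replicate block 4125 genes were higher and 3474 lower. The labels do not say whether cultures of the same letter were set up together. Deviations of same-lettered libraries correlated at -0.23, -0.08 and -0.19, and those of other letters at -0.02 to 0.18. These values show no shared shift by letter and cannot tell how the cultures were set up. Of single genes, Axl (-0.184 after quantile normalization), Eef1a1 (-0.172 as TPM), Egr1 (-0.222 to 0.262 with single libraries left out, the latter without BME day 1 replicate c), Trp53 (-0.200 as TPM, -0.381 by quantiles, -0.186 without short genes) and Yap1 (-0.029 as TPM and -0.015 without short genes) changed sign. Depth limits genes of 1 to 5 FPKM, whose intervals are several times wider than those from 20 FPKM.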
